A study of Fragaria vesca with 18 samples.

Results

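A set of 216 exonic antisense long non-coding RNAs (lncRNAs) of woodland strawberry fruit was described, chosen because their level was high in immature fruit and at least 8-fold lower in the ripest fruit sampled. The members are rows of the class exonAS that have 1 merged exon block in the assembled transcripts. Each had a median of at least 20 CPM (counts divided by the library total and scaled to a common total) in the 3 green-stage rRNA-depleted libraries, and a brown-stage median at least 8-fold lower after 0.1 CPM was added to both. Of 61763 rows in the count table, 12662 were exonic antisense rows, 12340 of these had 1 block, and 1935 of those reached 20 CPM at green. The members are 11.2% of these 1935 rows. The same thresholds were met by 733 of 6977 annotated genes (10.5%). The green and brown rRNA-depleted values chose the members, so the fall in those libraries is given as a description with no test. The poly(A)-depleted libraries were not used in the choice, and the tests were made there. The labels do not say whether the kinds of library share fruit or RNA. Same-numbered green libraries moved alike in both kinds for some members, such as exonAS.XLOC_000325 and exonAS.XLOC_012900. Brown library 3 was the highest brown library for 151 members in rRNA-depleted and 191 in poly(A)-depleted libraries. Yellow library 2 was the lowest yellow library for 201 and 112 members. The tests are therefore not read as independent of the choice, and whether the kinds share fruit was not tested.

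An exonic antisense lncRNA is a transcript without an annotated protein product that is read from the strand opposite to a gene and overlaps an exon of that gene. Antisense transcripts of plants are known to act in several ways on the gene they overlap, among them changes of chromatin, transcription through the gene, and pairing with the sense RNA. Many others have no known role. In strawberry the fleshy part is the receptacle, the achenes on its surface are the true fruits, and achene colour follows the passage from a growing to a ripe fruit. The rows have no names or known functions beyond their locus number, and no table used here pairs the FvH4 gene IDs with names, so the roles of the overlapping genes and the markers of fruit tissue could not be given.

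RNA came from fruit of Fragaria vesca (Hawaii4), a diploid wild strawberry, grown in a greenhouse without further treatment, and fruit tissues of at least 5 plants were combined in each biological replicate. The 3 stages are called green (immature fruit, green achenes), yellow (mature fruit, yellow achenes) and brown (mature fruit, brown achenes). At each stage, 3 libraries were made from RNA depleted of ribosomal RNA and 3 from RNA depleted of polyadenylated RNA, 18 stranded paired-end libraries in 6 groups. Library totals ranged from 9.49 to 76.9 M counts, with all poly(A)-depleted libraries at or below 20.4 M and all rRNA-depleted libraries at or above 47.2 M. In whole fruit, fewer cells that hold a transcript and less of it per cell cannot be told apart.

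The members lay on all 7 chromosomes, with 22, 30, 39, 29, 24, 46 and 26 of them on chromosomes 1 to 7. Between 9.02% (chromosome 5) and 13.0% (chromosome 3) of the single-block exonic antisense rows at or above 20 CPM of a chromosome were members. They were assembled on the plus strand in 109 cases and on the minus strand in 107. Their length ran from 511 to 6465 bases with a median of 1768, against a median of 1684 among the 1719 rows at or above 20 CPM that missed the 8-fold criterion, called here the non-falling rows. A single transcript was assembled for 213 of the 216.

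In rRNA-depleted libraries, the median over the members was 47.0 CPM at green, 4.50 at yellow and 2.05 at brown. The fall in group medians ran from 8.12-fold to 424-fold, with a median of 22.8-fold, and 26 members were at least 100-fold lower at brown. All 3 brown libraries lay below all 3 green libraries for each of the 216 members. The same held for 20.8% of all rows, and nothing is read from this because the rule used these libraries. As a share of all counts, the members held 2.04, 2.35 and 2.64% of the green libraries, 0.719, 0.0617 and 0.203% of the yellow and 0.0584, 0.0786 and 0.115% of the brown. Poly(A)-depleted libraries held 1.49, 1.62 and 1.99% at green, 0.406, 0.259 and 0.310% at yellow and 0.105, 0.190 and 0.315% at brown. In poly(A)-depleted libraries the green shares were therefore above every yellow and brown share. The same held in rRNA-depleted libraries, where the members had been chosen for a brown level below green.

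**Figure D1:**
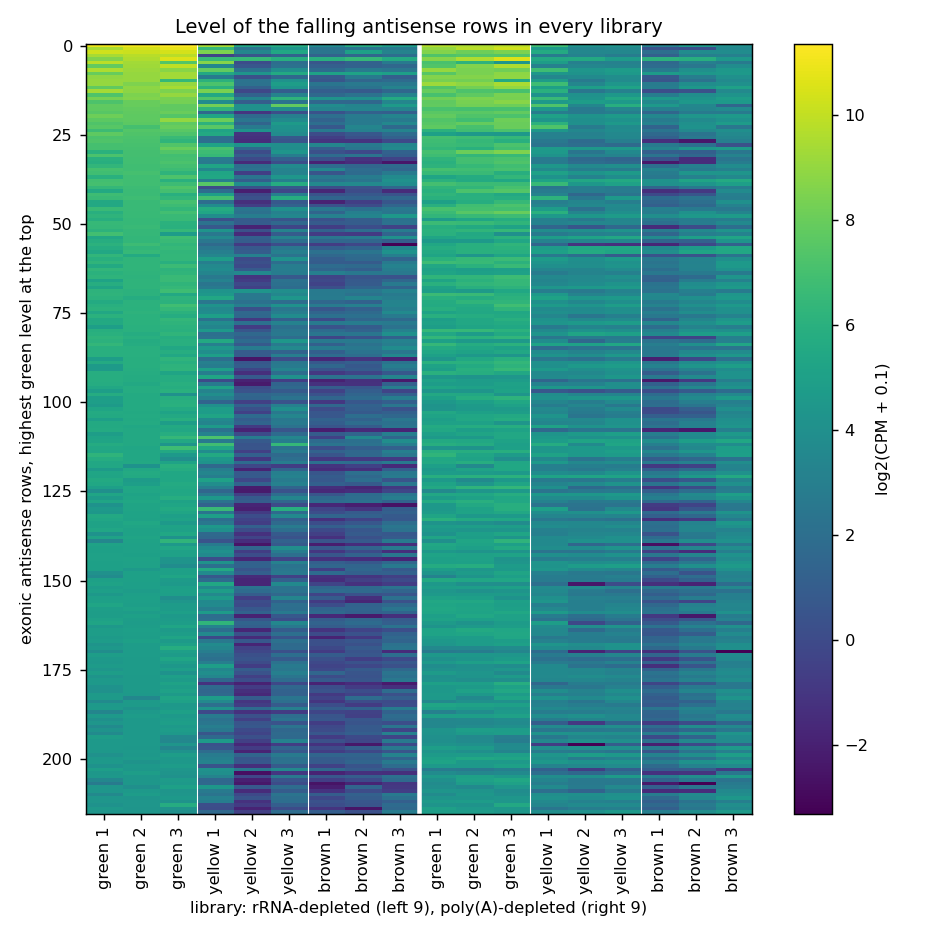
Level of the 216 members (rows, ordered by green rRNA-depleted median, highest at the top) in the 18 libraries (columns), as log2 of CPM plus 0.1. The green columns are bright in both kinds of library, and the brown columns are darker on the rRNA-depleted side, where the median over members is 2.05 CPM, than on the poly(A)-depleted side, where it is 6.64 CPM.

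A few members carried much of the signal, and some of them had counts nearly equal to those of an annotated gene. Among the 8 described next, these were exonAS.XLOC_015158, exonAS.XLOC_010959, exonAS.XLOC_006840, exonAS.XLOC_012900 and exonAS.XLOC_015176. The 8 with the most counts at green began with exonAS.XLOC_015158 (chromosome 4, 22753372 to 22754971, plus strand, 1600 bases). It held 1949, 2123 and 2615 CPM in the rRNA-depleted green libraries, 651, 41.4 and 53.0 at yellow and 13.6, 53.0 and 27.4 at brown. In poly(A)-depleted libraries it held 816, 739.7 and 927 CPM at green, 111, 18.2 and 19.2 at yellow and 8.42, 24.4 and 14.9 at brown. The green libraries were highest in both kinds, and yellow library 1 was the highest yellow library in both. Its poly(A)-depleted level fell from green to brown by 5.94 on the log2 scale (SE 1.0003, adjusted p = 0.0089).

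exonAS.XLOC_005632 (chromosome 2, 28411367 to 28412428, plus strand) held 684, 1376 and 1876 CPM in rRNA-depleted green libraries and 4.82, 5.07 and 6.44 at brown. In poly(A)-depleted libraries its green values were 507, 878 and 1277 CPM and its brown values 1.22, 1.07 and 10.8. The groups did not overlap in either kind. The fitted poly(A)-depleted change from green to brown was -8.24 ± 1.10 (log2 estimate ± SE, adjusted p = 0.00315), the largest fall among the members. exonAS.XLOC_006840 (chromosome 2, 15941343 to 15942176, minus strand) held 688, 892 and 894 CPM in rRNA-depleted green libraries, 0.666, 1.36 and 2.32 at yellow and 2.42, 2.80 and 3.85 at brown. Its low level was thus reached at yellow, and its 3 yellow libraries lay closer together than those of exonAS.XLOC_015158. In poly(A)-depleted libraries it held 157, 177 and 174 CPM at green and 2.20, 7.93 and 8.24 at brown, a change of -5.15 ± 0.42 (log2, adjusted p = 0.000923).

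exonAS.XLOC_010959 (chromosome 3, 5155186 to 5158790, minus strand) held 1247, 1157 and 1349.8 CPM in rRNA-depleted green and 5.20, 32.7 and 9.25 in brown libraries. Its poly(A)-depleted values were 403, 274 and 357 CPM at green and 4.06, 13.8 and 13.9 at brown (log2 change -5.37 ± 0.82, adjusted p = 0.00548). For exonAS.XLOC_015176 (chromosome 4, 23039861 to 23042542, plus strand), poly(A)-depleted levels were 167, 374 and 747 CPM at green and 3.57, 5.61 and 13.8 at brown (log2 change -6.21 ± 0.74, adjusted p = 0.00194). Both fell with no overlap between green and brown libraries. exonAS.XLOC_026382 (chromosome 6, 1620595 to 1623849, minus strand) held 517, 344 and 286 CPM in poly(A)-depleted green libraries and 6.80, 15.8 and 22.2 at brown, a change of -5.01 ± 0.81 (log2, adjusted p = 0.00725).

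The calls of the remaining pair of these 8 were lost when some single libraries were left out. exonAS.XLOC_000325 (chromosome 1, 5024846 to 5026701, plus strand) held 385, 774 and 1528 CPM in rRNA-depleted green libraries, and 60.8, 88.7 and 49.3 at brown. In poly(A)-depleted libraries it held 419, 743 and 1539.6 CPM at green, 46.3, 47.9 and 26.2 at yellow and 67.6, 58.6 and 22.5 at brown. Green library 3 was highest in both kinds, and brown and yellow libraries overlapped. Its fall of 4.11 ± 0.93 on the log2 scale (adjusted p = 0.0336) lost the call when green library 1, 2 or 3, brown library 2 or yellow library 2 or 3 was left out (adjusted p = 0.0606, 0.0788, 0.111, 0.148, 0.0651 and 0.0528). exonAS.XLOC_012900 (chromosome 3, 30926176 to 30927879, minus strand) held 139.8, 71.7 and 20.8 CPM in poly(A)-depleted green libraries and 3.13, 7.84 and 6.34 at brown. Its fall of 3.97 ± 0.78 (log2, adjusted p = 0.0178) lost the call without green library 1 (adjusted p = 0.0542) or without brown library 2 (adjusted p = 0.0722).

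Over the whole set, 195 of the 216 members fell from green to brown in poly(A)-depleted libraries at an adjusted p under 0.05, and none rose. The test was edgeR's quasi-likelihood F test with Benjamini-Hochberg adjustment over the 48201 rows tested, of which 4.38% were lower and 1.28% higher in this contrast. The members' median log2 change was -2.77, with a range from -8.24 to -0.56. Of the 1719 non-falling rows, 117 fell (6.81%) and 1 rose, with a median of -0.49. Of the 733 annotated genes that met the members' thresholds, 641 fell (87.4%), with a median of -2.70, so the antisense set and the gene set gave similar shares. The sets are not separate, because the gene set includes genes with counts nearly equal to those of a member, such as FvH4_4g18990. The median over all rows was 0.15, and 0.41 with TMM factors from annotated rows or 0.45 with library size alone. The first of these scalings gave 1806 lower and 2125 higher rows in place of 2110 and 615, while no member was higher under any scaling run.

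All 216 members were tested. Each passed the low-count filter's threshold in the 3 green libraries, 209 did in all 3 yellow and 185 in all 3 brown libraries, so some entered the test only through the stage where they were chosen to be high. The 195 lower members include such rows, exonAS.XLOC_031042 among them. Neither this count nor that from green to yellow was made without such rows. In group medians, the poly(A)-depleted fall had a median of 6.17-fold and ran from 1.09-fold to 663-fold. It reached 8-fold in 96 members and stayed under 2-fold in 24. All 3 brown libraries were below all 3 green libraries for 193 members, against 10.7% of all rows and 42.8% of non-falling rows. The fall was smaller in poly(A)-depleted than in rRNA-depleted libraries for 202 members and larger for 14. Because a large rRNA-depleted fall was the condition for membership, this count is a description.

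**Figure D2:**
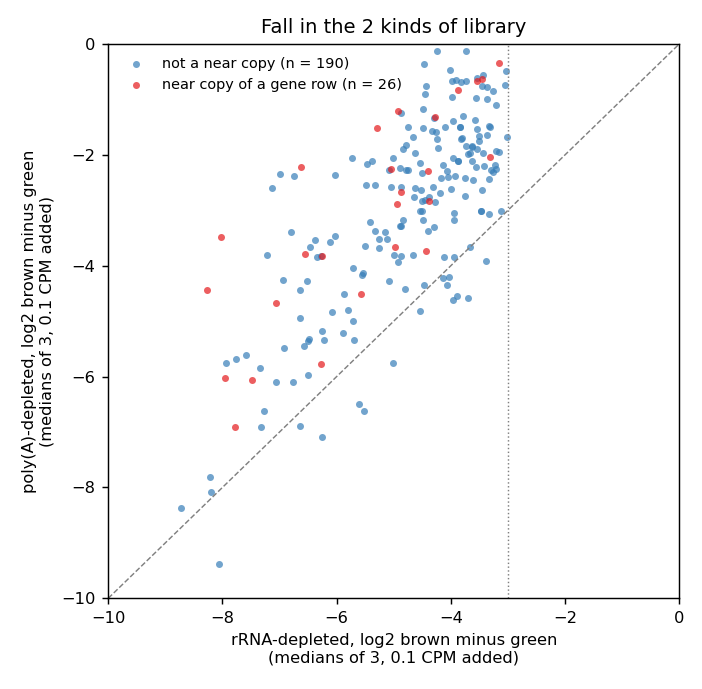
Change from green to brown (log2 of group medians with 0.1 CPM added) of each member in rRNA-depleted (x axis) and poly(A)-depleted libraries (y axis), with the 26 near copies of an annotated gene in red, the 8-fold criterion as a dotted line and equal change as a dashed line. Most points, 202 of 216, lie above the dashed line, where the poly(A)-depleted fall is the smaller one.

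The other members with the largest fitted poly(A)-depleted falls reached very low brown counts. exonAS.XLOC_010595 (chromosome 3, 203665 to 204855, minus strand) held 132, 263 and 365 CPM at green, 23.7, 5.21 and 12.5 at yellow and 2.10, 2.05 and 5.27 at brown in poly(A)-depleted libraries (log2 brown minus green -6.62 ± 0.81, adjusted p = 0.00223). exonAS.XLOC_031042 (chromosome 7, 22744576 to 22745240, plus strand) held 43.4, 61.6 and 79.0 CPM at green and 0.196, 0.802 and 2.22 at brown (-6.32 ± 0.83, adjusted p = 0.003). In both, each green library exceeded each yellow and brown library. Outside green, however, the counts of exonAS.XLOC_031042 were only 25, 4 and 3 at yellow and 4, 9 and 27 at brown. This row entered the test only through the stage where members were chosen to be high. Its fall is therefore given as a description, and its p-value is not read as evidence. exonAS.XLOC_012515 (chromosome 3, 25870283 to 25871427, minus strand) had the largest rRNA-depleted fall in group medians, 424-fold, from 58.4, 119 and 147 CPM at green to 0.180, 0.263 and 0.0847 at brown. In poly(A)-depleted libraries it held 63.7, 122 and 161 CPM at green and 0.0979, 0.267 and 6.92 at brown. Brown library 3 was far above the other brown libraries, and the fitted change of -6.28 ± 1.14 (log2, adjusted p = 0.0125) became -9.23 without it. Without brown library 2 the change was -5.80 with an adjusted p of 0.0502.

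At the other end, 21 members did not pass the test from green to brown, with adjusted p up to 0.249. The 5 smallest fitted changes belonged to exonAS.XLOC_029105, exonAS.XLOC_012029, exonAS.XLOC_023055, exonAS.XLOC_025334 and exonAS.XLOC_019359, at -0.56, -0.76, -0.79, -0.84 and -0.85 (log2, adjusted p = 0.249, 0.16, 0.0551, 0.0732 and 0.0984). exonAS.XLOC_029105 (chromosome 6, 36359380 to 36360468, minus strand) held 16.1, 13.0 and 6.97 CPM at green and 4.55, 11.9 and 13.7 at brown in poly(A)-depleted libraries, so the stages overlapped. In rRNA-depleted libraries the same row held 24.1, 23.4 and 11.0 CPM at green and 1.13, 0.772 and 6.33 at brown. exonAS.XLOC_019359 (chromosome 5, 9778791 to 9784191, plus strand, 5401 bases) held 64.9, 49.5 and 42.1 CPM at green and 18.3, 38.4 and 50.8 at brown in poly(A)-depleted libraries, against 122, 114 and 63.3 and 4.12, 5.05 and 17.1 in rRNA-depleted libraries. In both rows brown library 3 was the highest brown library of either kind. The fitted change of exonAS.XLOC_029105 was -0.30 without green library 1 and -0.29 without brown library 1, and that of exonAS.XLOC_012029 was -0.36 without brown library 1 and -1.15 without brown library 2. exonAS.XLOC_023055 passed without brown library 1 (-0.69, adjusted p = 0.0438). The counts of this row were nearly equal to those of the annotated gene FvH4_5g37970 (1 to 1.023 times).

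From green to yellow, 187 of the 216 members fell in poly(A)-depleted libraries and none rose, against 7.88% of all rows tested that were lower and 2.96% that were higher. The median log2 change of the members was -2.38, with a range from -6.38 to -0.30. Non-falling antisense rows also moved down at this step, with 369 of 1719 lower (21.5%), 3 higher and a median of -1.46. Of the annotated genes that met the thresholds, 612 of 733 were lower. The median over all rows was 0.19, and 0.56 with TMM factors from annotated rows or 0.77 with library size alone. With TMM factors from annotated rows, 3917 rows were lower and 9181 higher in place of 3799 and 1425, and with library size alone 95 members were lower. All 3 yellow libraries were below all 3 green libraries for 183 members, against 16.4% of all rows and 74.1% of non-falling rows. In rRNA-depleted libraries the same held for 189 members, against 17.8% of all rows and 29.1% of non-falling rows. The green libraries of that kind were part of the rule, so this count is a description.

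The count from green to yellow changed when 1 library was left out. It was 71 members without yellow library 2, 94 without yellow library 3, 119 without green library 3, 121 without green library 2, 130 without green library 1, 148 without yellow library 1 and 178 without brown library 2. It was 199 without brown library 1 and 208 without brown library 3. Between them, the stage contrasts with green called 183 members in both, 12 in brown minus green alone, 4 in yellow minus green alone and 17 in neither. The contrasts share the green libraries.

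From yellow to brown, no member passed the test in poly(A)-depleted libraries by edgeR or by DESeq2, and edgeR called 0% of all rows in either direction. DESeq2 called 52 rows higher and 0 lower over all rows. At an unadjusted p under 0.05, edgeR had 19 members lower and 0 higher. The members' median change was -0.34 (log2), with 178 below 0 and 38 above. Without brown library 3, 59 members were lower and 2 higher at an adjusted p under 0.05, and in that fit 7012 of all rows were lower and 9242 higher. In rRNA-depleted libraries, where the brown libraries were part of the rule, the brown median was below the yellow median for 200 members.

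Some libraries stood apart from their group. In rRNA-depleted yellow libraries 1, 2 and 3, the members' median log2 distance from the mean of the green libraries was -2.10, -5.29 and -3.35. Yellow library 1 held the highest of the 3 yellow values for 191 members and yellow library 2 the lowest for 201, and the median ratio of library 1 to library 2 was 9.58. Yellow library 1 exceeded all green libraries for 11 members. The annotated genes that met the thresholds, some of which had counts nearly equal to those of a member, moved alike, with medians of -1.97, -5.14 and -3.16. The non-falling rows had the same order with smaller distances, at 0.02, -0.39 and -0.24. Yellow library 1 was thus nearest to the green libraries and yellow library 2 lowest in the members, in these genes and in the non-falling rows.

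In poly(A)-depleted brown libraries 1, 2 and 3, the members' median log2 distance from green was -3.51, -2.58 and -1.71, and brown library 3 held the highest value for 191 members. Its level was a median of 3.44 times that in brown library 1. The share of counts in intergenic lncRNA rows rose in the same order over these libraries, at 5.44, 11.0 and 16.8%, and the non-falling rows went the other way, at -0.18, -0.56 and -1.22. Poly(A)-depleted green libraries held 5.70 to 7.28% in intergenic rows and yellow libraries 11.8 to 15.4%, while all rRNA-depleted libraries held 1.49 to 5.02%. The part of this share in the smaller poly(A)-depleted fall was not tested. Over the mean of brown libraries 1 and 2 alone, the members' median log2 difference from green was -2.94, against -2.37 over all 3.

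**Figure D3:**
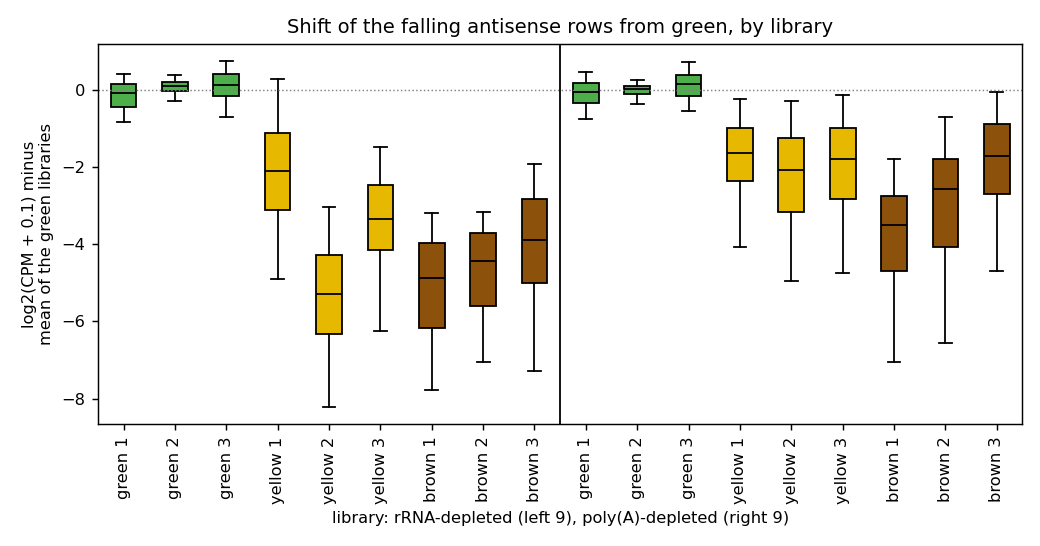
Distribution over the 216 members of the log2 distance (CPM plus 0.1) from the mean of the green libraries of the same kind, by library; boxes span the quartiles with the median as a line, and whiskers run from the 5th to the 95th percentile. Yellow library 1 stands highest among the rRNA-depleted yellow libraries (median -2.10) and brown library 3 highest among the poly(A)-depleted brown libraries (median -1.71).

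A few members kept a high yellow level. The ratio of yellow to green rRNA-depleted medians had a median of 0.0956 over the members, 135 were already at or under an eighth of green, 5 were above 0.5 and 3 were above 1. exonAS.XLOC_002266 (chromosome 1, 6772294 to 6774260, minus strand) held 52.0, 45.5 and 19.9 CPM at green, 115, 1.28 and 86.6 at yellow and 4.82, 4.57 and 7.58 at brown. exonAS.XLOC_005637 (chromosome 2, 28458410 to 28459807, plus strand) held 23.8, 37.8 and 48.3 CPM at green, 98.4, 0.146 and 59.2 at yellow and 0.692, 0.386 and 1.86 at brown. Its counts were nearly equal to those of the annotated gene FvH4_2g39750 (0.999 to 1.020 times). exonAS.XLOC_002751 (chromosome 1, 13045794 to 13046368, minus strand) held 216, 244 and 222 CPM at green, 302, 16.6 and 227 at yellow and 14.1, 9.79 and 25.4 at brown. In these 3 rows yellow libraries 1 and 3 were at or above most green values, and yellow library 2 was near or below the brown values.

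The poly(A)-depleted yellow libraries showed the same order for these rows, with library 1 highest and library 2 lowest. exonAS.XLOC_002266 held 54.7, 13.1 and 38.7 CPM at yellow, exonAS.XLOC_005637 held 30.7, 4.50 and 11.8, and exonAS.XLOC_002751 held 161, 11.0 and 58.4. None of the 3 passed the test from green to yellow (log2 changes -0.93 ± 0.49, -1.85 ± 0.75 and -2.28 ± 1.12, adjusted p = 0.179, 0.105 and 0.156). The 2 further members with a yellow to green ratio above 0.5 were exonAS.XLOC_007824, with 71.4, 5.74 and 23.2 CPM in poly(A)-depleted yellow libraries, and exonAS.XLOC_032641, with 2.20, 0.529 and 2.003. From green to brown, exonAS.XLOC_002266 (-2.18 ± 0.51, adjusted p = 0.0376), exonAS.XLOC_005637 (-4.57 ± 0.86, adjusted p = 0.0147) and exonAS.XLOC_007824 (-3.80 ± 0.78, adjusted p = 0.0225) fell, and exonAS.XLOC_002751 (-4.14 ± 1.22, adjusted p = 0.0792) and exonAS.XLOC_032641 (-2.19 ± 0.74, adjusted p = 0.112) did not pass.

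Leaving out 1 library ended several of these calls. That of exonAS.XLOC_002266 was lost without green library 1, 2 or 3, yellow library 3 or brown library 2 (adjusted p = 0.114, 0.107, 0.0816, 0.0641 and 0.126). That of exonAS.XLOC_005637 was lost without green library 3 or brown library 2 (adjusted p = 0.059 and 0.0802), and that of exonAS.XLOC_007824 without green library 1, 2 or 3 or brown library 2 (adjusted p = 0.0648, 0.0617, 0.0754 and 0.105). Conversely, exonAS.XLOC_002751 passed without brown library 1 or 3 (adjusted p = 0.0182 and 0.0138), as did exonAS.XLOC_032641 (adjusted p = 0.0279 and 0.0201).

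At the opposite extreme, the lowest yellow to green ratios belonged to exonAS.XLOC_006840, described above, and to 2 pairs of adjacent rows. exonAS.XLOC_016183 and exonAS.XLOC_016184 lie 1173 bases apart on the minus strand of chromosome 4 (2264323 to 2267571 and 2268745 to 2269878). The former held 478, 530.2 and 634 CPM in rRNA-depleted green libraries and 6.36, 1.17 and 2.87 at yellow, and the latter 186, 214 and 256 at green and 3.01, 0.373 and 1.07 at yellow. In both rows all yellow and brown libraries were far below all green libraries. Their poly(A)-depleted falls from green to yellow were 5.66 ± 0.64 and 5.43 ± 0.41 on the log2 scale (adjusted p = 0.00222 and 0.000749), and from green to brown the changes were -6.18 ± 0.66 and -5.60 ± 0.42 (adjusted p = 0.00149 and 0.000923).

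The other pair, exonAS.XLOC_012900 and exonAS.XLOC_012901, lies 430 bases apart on the minus strand of chromosome 3 (the latter at 30928310 to 30930668). Both had counts nearly equal to those of an annotated gene, FvH4_3g36030 (0.993 to 1.020 times) and FvH4_3g36040 (0.964 to 1.034 times). In rRNA-depleted yellow libraries the former held 416, 1.01 and 3.75 CPM and the latter 334, 0.758 and 1.99. Yellow library 1 was thus within the green values of 897, 648 and 175 CPM of the former and just below the 660.3, 455 and 349.9 CPM of the latter, and the low ratio of medians rests on yellow libraries 2 and 3. exonAS.XLOC_012901 fell from green to brown in poly(A)-depleted libraries (-5.84 ± 1.21, adjusted p = 0.0231) but did not pass without green library 1, 2 or 3 or brown library 2 (adjusted p = 0.066, 0.056, 0.0684 and 0.0972). It did not pass from green to yellow (-3.25 ± 1.07, adjusted p = 0.0685).

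Such neighbours were found 13 times, each a pair of members within 2000 bases of each other, 26 members in all. Both members lay on the same strand in all 13 pairs. In 4 pairs both rows were best correlated with the same annotated gene, among them exonAS.XLOC_016183 and exonAS.XLOC_016184, whose best match was FvH4_4g02460. Members of such a pair are not independent observations. A further abundant pair, exonAS.XLOC_027598 and exonAS.XLOC_027599 on chromosome 6 (16720504 to 16723349 and 16723966 to 16727502), fell from green to brown by 2.91 ± 0.27 and 3.99 ± 0.64 on the log2 scale (adjusted p = 0.00105 and 0.00729).

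The level of the members in one kind of library against the other changed with stage. The ratio of mean poly(A)-depleted to mean rRNA-depleted CPM had a median of 0.850 at green, 1.85 at yellow and 3.28 at brown, and it was above 1 for 81, 157 and 200 members. In the non-falling rows it was 0.955, 0.556 and 0.784, and in the annotated genes that met the thresholds 0.906, 1.69 and 3.24. The members and genes were chosen by a low rRNA-depleted brown level, which by itself raises this ratio at brown, so these are values side by side and no test was made. At green, the highest ratios were those of exonAS.XLOC_010595, exonAS.XLOC_008346, exonAS.XLOC_005274, exonAS.XLOC_028993 and exonAS.XLOC_027017. exonAS.XLOC_010595 held 65.2, 125 and 162 CPM in rRNA-depleted and 132, 263 and 365 in poly(A)-depleted green libraries, and the kinds overlapped.

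The lowest ratios at green were those of exonAS.XLOC_012900, exonAS.XLOC_026059, exonAS.XLOC_006840, exonAS.XLOC_010959 and exonAS.XLOC_032641. All of these except exonAS.XLOC_032641 had counts nearly equal to those of an annotated gene, so their low ratios are also those of the gene rows. For exonAS.XLOC_026059 this gene was FvH4_6g48590 (0.9999 to 1.08 times). exonAS.XLOC_026059 (chromosome 6, 36571372 to 36573011, plus strand) held 207, 161 and 153 CPM in rRNA-depleted green libraries and 32.3, 23.1 and 22.7 in poly(A)-depleted green libraries, with no overlap. For exonAS.XLOC_006840 the values given above, 688 to 894 and 157 to 177 CPM, did not overlap either. Depletion of polyadenylated RNA lowers the share of transcripts that carry a poly(A) tail. The files do not say which members carry one.

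Residual levels followed transcript length more in the late poly(A)-depleted libraries than at green. Across the 216 members, Spearman's rho of length with mean poly(A)-depleted CPM was 0.205 at green, 0.604 at yellow and 0.691 at brown, and with mean rRNA-depleted CPM 0.196, 0.144 and 0.425. These are descriptions over rows that share libraries. Among the 72 shortest members (511 to 1411 bases) the median poly(A)-depleted fall in group medians was 14.0-fold, among the middle 72 it was 5.51-fold and among the 72 longest (2201 to 6465 bases) 4.34-fold. The rRNA-depleted falls of the same groups were 46.1-fold, 22.8-fold and 17.2-fold. Per kilobase, the members' median mean level was 21.9 CPM at green, 6.32 at yellow and 4.33 at brown in poly(A)-depleted libraries, and 24.6, 2.74 and 1.31 in rRNA-depleted libraries. By library, the rho at brown was 0.540, 0.562 and 0.771 in poly(A)-depleted libraries 1, 2 and 3, where the intergenic share was 5.44, 11.0 and 16.8%. The part of this share in the relation with length was not tested.

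**Figure D4:**
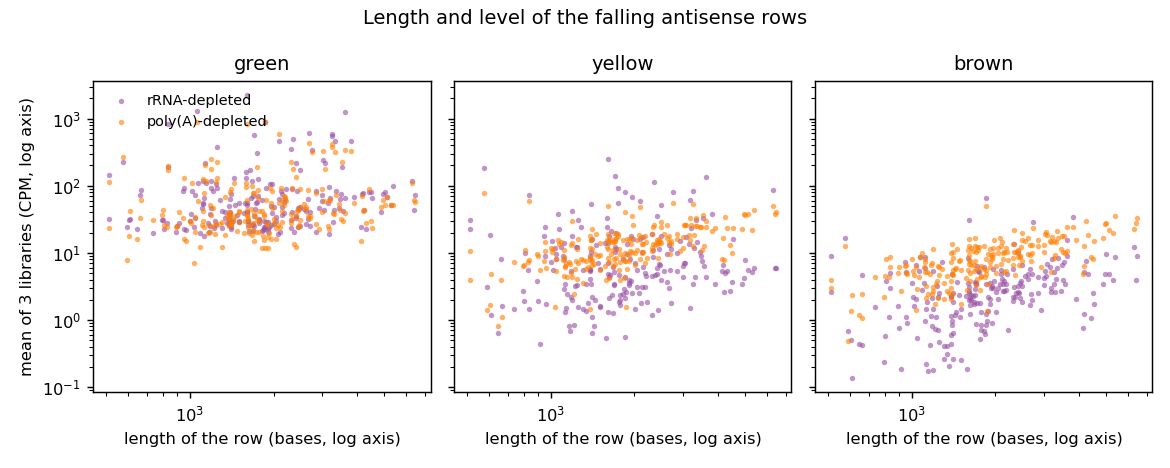
Length of each member (x axis, bases, log scale) against its mean level over 3 libraries (y axis, CPM, log scale) at green, yellow and brown in rRNA-depleted (purple) and poly(A)-depleted libraries (orange). The orange points rise with length at yellow and brown (Spearman's rho 0.604 and 0.691) and little at green (0.205).

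The members' counts were closely tied to those of annotated genes. For 26 members (12.0%) the count stayed within 10% of that of 1 annotated gene of the same chromosome in every library where both had at least 20 counts, over at least 6 such libraries. These are called near copies here. Among non-falling rows 5.003% were near copies. With a tolerance of 5% there were 17 among the members, and with 25% there were 50. The near copies held 36.1 to 39.1% of all member counts in the rRNA-depleted green libraries. In 21 of the 26, the antisense count was at least 0.99 of the gene count in every library compared.

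exonAS.XLOC_015158 had counts between 0.998 and 1.004 times those of FvH4_4g18990 in all 18 libraries. exonAS.XLOC_010959 held 1 to 1.050 times the counts of FvH4_3g08830, exonAS.XLOC_006840 held 1 to 1.047 times those of FvH4_2g18610, and exonAS.XLOC_015176 held 1 to 1.053 times those of FvH4_4g19370. exonAS.XLOC_012900 followed FvH4_3g36030 at 0.993 to 1.020. For these 5 abundant members the antisense row and the gene therefore gave 1 measurement under 2 names. Since the strand setting of the counting is not given in the sources used here, reads of the gene and of the row antisense to it cannot be told apart.

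The other 190 members did not copy a gene by this measure, but their best correlated gene on the same chromosome was still close. Pearson's r of log2(CPM + 0.5) over the 18 libraries with that gene was above 0.95 for 187 of them and above 0.99 for 86, with a lowest value of 0.935 over all members. The 18 libraries share the fall with stage, so a high r is not particular to a neighbour. The files give no gene positions. Where a row falls along the gene numbers was therefore interpolated from 444 rows with counts nearly equal to those of a gene, 443 of which stood in rising order. For 111 of the 190, the best correlated gene on the whole chromosome lay within 20 gene numbers of that place, a window holding on average 0.977% of the chromosome's gene rows. All 26 near copies had their gene within it.

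Of these 111 members, 74 had counts at or below those of the gene in every library compared, 15 at or above, and 22 on both sides. exonAS.XLOC_005632 held 0.780 to 1 of the counts of FvH4_2g39620, exonAS.XLOC_000325 held 0.394 to 0.483 of those of FvH4_1g09360, and exonAS.XLOC_010897 (chromosome 3, 4401755 to 4405547, minus strand) held 0.486 to 0.748 of those of FvH4_3g07420. These 3 members never exceeded the gene's count, and the ratio varied between libraries. exonAS.XLOC_026382 exceeded FvH4_6g02870 in every library, by 1.001 to 2.367 times, and exonAS.XLOC_010968 exceeded FvH4_3g08930 by 1.271 to 2.277 times. For the remaining 79 members, the best correlation inside the window of 20 genes had a median of 0.945, from 0.717 to 0.9904, and it was above 0.95 for 35.

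**Figure D5:**
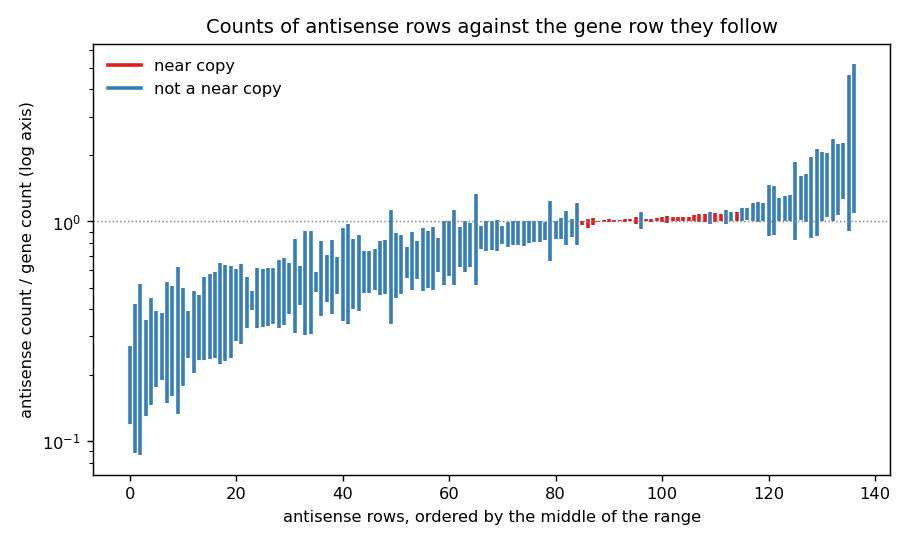
Range over libraries (lowest to highest, vertical lines, log axis) of the count of a member divided by that of its best correlated gene, for the 26 near copies (red) and the 111 other members whose best correlated gene lay within 20 gene numbers of their place (blue), ordered by the middle of the range. Most blue ranges lie at or below 1, as 74 of these members never exceeded the gene, and 15 lie at or above 1.

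Near copies and other members were called at similar rates. From green to brown, 24 of the 26 fell in poly(A)-depleted libraries with a median log2 change of -3.28, and 171 of the other 190 fell with a median of -2.74. From green to yellow the counts were 22 of 26 and 165 of 190. Their median green level was 138 CPM in rRNA-depleted and 83.3 CPM in poly(A)-depleted libraries, against 44.6 and 37.3 CPM for the others, with median lengths of 2043 and 1725 bases. The median fall in rRNA-depleted group medians was 32.3-fold for near copies and 22.3-fold for the others, and in poly(A)-depleted libraries 7.26-fold and 6.08-fold. The ratio of mean poly(A)-depleted to mean rRNA-depleted CPM at green had a median of 0.702 in near copies and 0.884 in the others. No test of these differences was made.

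Members at the edge of the rule show how sharp its thresholds were. Just inside the green threshold stood exonAS.XLOC_011034, exonAS.XLOC_015715 and exonAS.XLOC_029219, with green medians of 20.0, 20.2 and 20.5 CPM. Just outside stood exonAS.XLOC_006777, exonAS.XLOC_003774 and exonAS.XLOC_023911, at 19.6, 19.4 and 19.3 CPM and falls of 10.2-fold, 16.7-fold and 22.7-fold. Just inside the fold threshold stood exonAS.XLOC_010968, exonAS.XLOC_021669 and exonAS.XLOC_015389, with falls of 8.12-fold, 8.22-fold and 8.30-fold, and just outside exonAS.XLOC_008857, exonAS.XLOC_016546 and exonAS.XLOC_015665, with 7.91-fold, 7.90-fold and 7.87-fold. The rows inside and outside differ by less than their replicates do: exonAS.XLOC_010968 held 60.7, 69.1 and 116 CPM in the rRNA-depleted green libraries.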

How the data were processed

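The authors deposited 1 table of raw counts (whole numbers, not normalized, per the file headers and values) for the 18 libraries, and a file of assembled exons whose source column names Cufflinks. From the latter, block number, strand and positions (counted from 1) were read. Tools listed in the submitters' processing notes, without a role, are TopHat2 2.1.2, STAR 2.5.4b and Trim Galore 0.4.2. For counting program, strand setting, build and annotation, the status is: not given in the sources used here.

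The members and lists were chosen with earlier results of these data known. CPM are counts divided by the library total. Poly(A)-depleted counts were tested in R 4.3.3 with edgeR 4.0.16 and limma 3.58.1, in 1 fit of the 9 libraries, by the quasi-likelihood F test after TMM scaling and filterByExpr on stage, with Benjamini-Hochberg adjustment over all rows tested. Rows were called at an adjusted p under 0.05, and SEs were derived from the F statistic. The test was also run on simulated counts, without differences between replicates common to many rows, and nothing is concluded from that run. DESeq2 1.42.0 and other scalings, filters, thresholds and sets of libraries were tried as alternatives.

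Members named are the extremes of green level, of poly(A)-depleted change, of the yellow to green ratio and of the ratio between library kinds, members next to each threshold, the most abundant near copies and other members, and the most abundant neighbours. The gene-number window and the way of interpolating a row's place were settled after the values were seen. p-values measure the spread between replicates that each pool fruit of several plants. Equal replicate numbers were not treated as pairs across stages, because the labels do not say what they share. Same-numbered poly(A)-depleted libraries of different stages also did not always deviate together. Pairing between the kinds of library was not checked, though many members had the same highest or lowest library in both kinds. No 2 replicates agreed within sampling noise.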

Additional observations from a re-analysis of the deposited data

How the results depend on the processing

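The count of members lower from green to brown ran from 133 (library size alone) to 212 (DESeq2) over the settings tried, and from 134 to 209 when 1 library was left out. From green to yellow, 187 became 99 at an adjusted p under 0.01 and 95 with library size alone, and ran from 71 to 208 when 1 library was left out. From yellow to brown it ran from 0 to 59 when 1 library was left out, and was 0 in the other settings. The cause was not tested. With the replicate number as a block the counts were 192, 190 and 0. Same-numbered poly(A)-depleted libraries deviated from their group means with correlations from -0.14 to 0.37. The rule gave 192 to 234 members under its alternatives, and 17 or 50 near copies with a tolerance of 5% or 25%. Of 712 values of 38 named members under alternatives, 621 kept their direction and side of the threshold, 76 lost the call, 15 gained it and 0 reversed. Of the 31 named members called, 17 lost the call in at least 1 alternative. Poly(A)-depleted libraries held 9.49 to 20.4 M counts, which limits the precision of members near 0 at brown.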
